A study of Homo sapiens with 12 samples.

Results

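KO313 is a p53 KO clone of MCF10A cells, breast epithelial cells that were immortalized but form no tumors, and its 4 RNA-seq libraries were compared with the 4 libraries of wild-type (WT) MCF10A cells. These 8 libraries, chosen by their labels, are part of a series of 12 libraries. The other 4 come from KO414, a second p53 KO clone made with another pair of CRISPR guide RNAs, and show which changes KO313 does not share. All 3 groups are MCF10A cells of low passage number, grown in the same medium with horse serum, insulin, EGF, hydrocortisone and cholera toxin, and they carry no other allele or treatment that the labels name. The study's methods describe the clones as grown from single sorted cells after transfection of guide and EGFP plasmids, with loss of the p53 protein seen on immunoblots, and WT as the parental cells. KO313 is thus 1 clone against an uncloned line, so that what the loss of p53 did to a gene cannot be told apart from what editing, sorting and the choice of a cell did. The 4 libraries of a group are called biological repeats, and p-values speak for the spread among repeats of this clone, not among p53 KO clones.

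p53 is a transcription factor that binds DNA as a tetramer and raises transcription of genes for cell cycle arrest, DNA repair, apoptosis and metabolism. In unstressed cells its level is held low by MDM2, a ubiquitin ligase that is itself a p53 target, which closes a negative feedback loop. Basal p53 activity in cultured epithelial cells keeps part of this program on, including CDKN1A, the gene of the cyclin-dependent kinase inhibitor p21. The relatives p63 and p73 bind similar DNA sequences, and p63 is a regulator of basal epithelial cells such as MCF10A.

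The relatives of p53 moved in opposite directions. In RPKM (reads per kilobase of gene, scaled to library size), TP63, which encodes p63, was higher, with 10.1, 9.88, 9.02 and 8.91 RPKM in KO313, against 6.57, 6.47, 5.68 and 6.48 RPKM in WT, a ratio of means of 1.51, and the libraries of these groups did not overlap. TP73, which encodes p73, was low throughout and lowest in KO313, with 0.0793, 0.0865, 0.0504 and 0.112 RPKM in KO313, 0.324, 0.313, 0.332 and 0.238 RPKM in KO414, and 0.753, 0.541, 0.469 and 0.634 RPKM in WT. None of the 3 groups overlapped for TP73. The mean of TP73 in KO313 was 7.31-fold below that in WT. An exact two-sided permutation test of KO313 against WT on log2(RPKM + 0.05) gave p = 0.0286 for both genes (adjusted p = 0.0286), the smallest that 4 against 4 libraries can give, with log2 differences of 0.59 for TP63 and -2.30 for TP73. The difference between the clones, from the limma fits described next, was -1.43 ± 0.18 (SE) in log2 for TP73 (adjusted p = 3.1e-04), while for TP63 it did not pass the test (0.18 ± 0.10, adjusted p = 0.572).

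**Figure D1:**
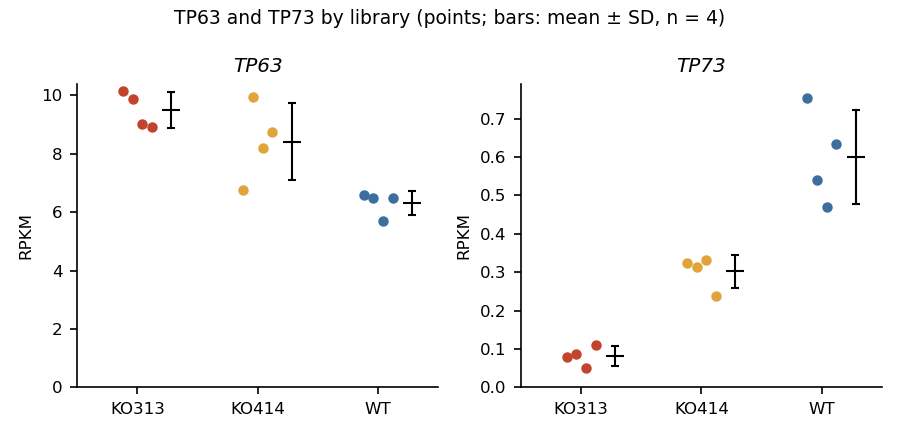
RPKM of TP63 and TP73 in each library (points) of KO313, KO414 and WT, with the mean and SD of each group (n = 4) beside the points. TP63 lies at 8.91 or above in KO313 and at 6.57 or below in WT, and TP73 is at 0.112 or below in KO313.

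The 12 libraries were of similar depth in the table. The whole numbers behind the RPKM values sum to nearly the same total in each library. Gaps among the small whole numbers look like scaling by a factor per library, and if the inferred factors hold, the values correspond to 35.7 to 55.7 M reads in KO313, 30.0 to 38.0 M in KO414 and 36.0 to 42.7 M in WT. For KO313 replicate 1 such a factor could not be told from none. A number of genes above 0 of 15603 to 16316 was listed in KO313, 16020 to 16233 in KO414 and 15989 to 16645 in WT. The 6 basal markers of MCF10A cells (KRT5, KRT14, KRT17, TP63, ITGA6 and CDH3) summed to 1213 to 1349 RPKM in KO313, 1110 to 1194 in KO414 and 1661 to 1897 in WT, and 4 epithelial markers (EPCAM, CDH1, KRT8 and KRT18) to 279.9 to 320.0 RPKM in KO313, against 298 to 315 in WT. Immune, endothelial and adipocyte markers (3 genes each) summed to at most 0.0356, 0.0101 and 0.0533 RPKM in KO313, and to at most 0.0342, 0.0359 and 0.0645 in WT. The 5 fibroblast markers summed to 3.85 to 4.02 RPKM in KO313, against 3.73 to 4.27 in WT. In this sum 1 marker had a mean of 3.43 RPKM in KO313 and 3.34 in WT. In the basal sum KRT5 had means of 1055 and 1344 RPKM. These 2 sums thus mostly follow 1 gene each and can hide changes of the other markers. The libraries are bulk RNA, in which fewer cells with a transcript and less of it per cell cannot be told apart.

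The first comparison asked which genes of at least 0.5 RPKM in 4 libraries differ between KO313 and WT. It was made with limma on log2(RPKM + 0.5), a scale that understates the change of low genes, and a gene was called at a Benjamini-Hochberg adjusted p under 0.05 over all genes tested and a fold change of at least 2. Losses outnumbered gains. Of 12215 genes, 149 were called lower (1.22%) and 26 higher (0.213%) in KO313, and in 171 of the 175 the 4 KO313 libraries lay wholly outside the WT range, as they did for 29.6% of all genes tested. Without the fold threshold the directions were even, at 1316 higher (10.8%) and 1313 lower (10.7%). In KO414, compared with the same WT libraries, 193 genes were called lower (1.58%) and 41 higher (0.336%).

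**Figure D2:**
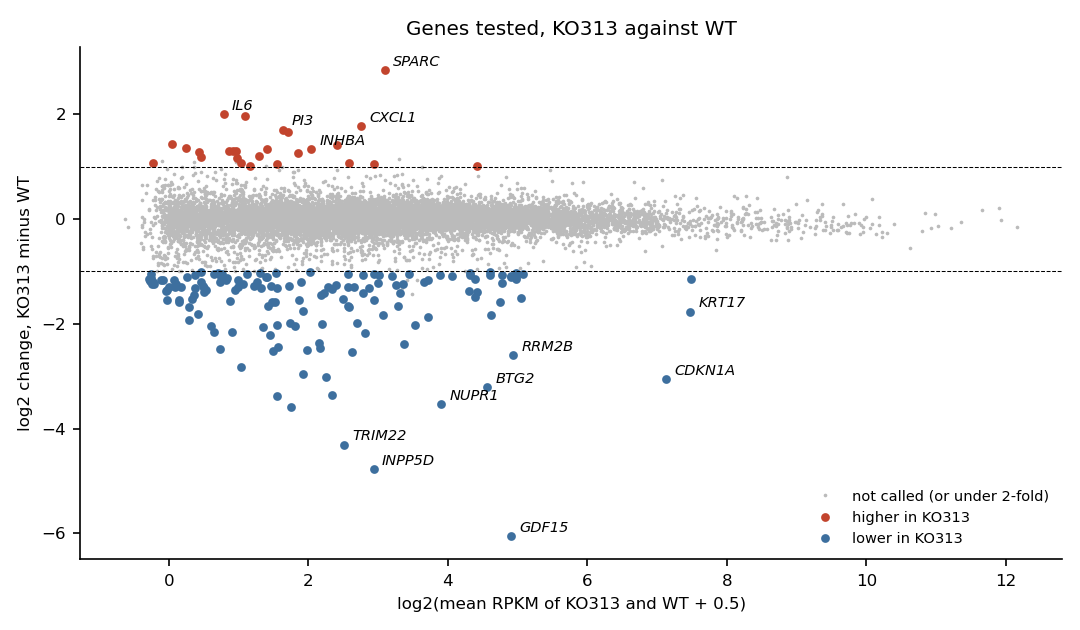
Log2 change of KO313 against WT (y axis) over the log2 of the mean RPKM of these groups plus 0.5 (x axis) for the 12215 genes tested, with the 26 genes called higher in red, the 149 called lower in blue and the 2-fold limits as dashed lines. The lowest point is GDF15 and the highest is SPARC.

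Several of the 12 lowest log2 changes were in genes known as targets of p53. GDF15, a secreted stress cytokine, had 0.454, 0.370, 0.382 and 0.358 RPKM in KO313, against 65.1, 53.1, 57.6 and 58.7 RPKM in WT, and its log2 change was -6.05 ± 0.11 (SE, adjusted p = 1.2e-12). CDKN1A had 25.5, 28.3, 32.0 and 32.3 RPKM in KO313, against 258, 228, 272 and 238 RPKM in WT, and the mean was 8.43-fold lower in KO313 (log2 change -3.06 ± 0.11, adjusted p = 5.8e-10). For both genes the highest KO313 library was far below the lowest WT library. BBC3, which encodes the proapoptotic BH3-only protein PUMA, had 0.321, 0.340, 0.291 and 0.485 RPKM in KO313, against 7.02, 5.55, 5.96 and 6.25 RPKM in WT. TP53INP1, a stress protein that acts in cell death and autophagy, had 0.369, 0.413, 0.349 and 0.457 RPKM in KO313, against 9.93, 8.67, 8.10 and 8.21 RPKM in WT. RRM2B, the p53-inducible subunit of ribonucleotide reductase, had 7.996, 8.68, 7.95 and 8.19 RPKM in KO313, against 60.2, 47.5, 49.8 and 51.4 RPKM in WT. These 3 genes were 17.2-fold, 22.0-fold and 6.36-fold lower by their means (log2 changes -2.96, -3.36 and -2.59). BTG2, an antiproliferative regulator of mRNA decay, had 3.48, 3.87, 4.49 and 4.64 RPKM in KO313, against 43.5, 39.5, 45.4 and 39.6 RPKM in WT, 10.2-fold lower. NUPR1, a small stress-induced nuclear protein, had 2.40, 1.92, 1.92 and 1.38 RPKM in KO313, against 27.3, 26.5, 28.7 and 25.9 RPKM in WT, 14.2-fold lower. No difference between the clones passed the test for these 7 genes, with log2 differences between the clones of -0.32 (BTG2, adjusted p = 0.0929) to 0.07 (RRM2B, adjusted p = 0.942).

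Other losses included genes all but silent in KO313, among them TRIM22, which is also a listed p53 target. INPP5D, the inositol phosphatase SHIP1, had 0.0673, 0.0489, 0.0214 and 0.0275 RPKM in KO313, against 14.3, 14.1, 15.7 and 12.9 RPKM in WT, and the mean was 346-fold lower (log2 change -4.77 ± 0.07). TRIM22, an antiviral ubiquitin ligase, had 0.0332, 0.0609, 0.0499 and 0.0332 RPKM in KO313, against 10.3, 9.60, 11.4 and 9.88 RPKM in WT, 232-fold lower. These KO313 values stand for 7 to 22 scaled reads of INPP5D and 6 to 11 of TRIM22, against 4211 to 5143 and 1732 to 2049 in WT. LCE1C and LCE1B, late cornified envelope proteins of the epidermis, had 0, 0, 0.0241 and 0.0241 RPKM in KO313, against 5.18, 5.596, 6.83 and 5.16 RPKM in WT for LCE1C, and 0.0170, 0, 0 and 0 RPKM in KO313, against 2.73, 3.07, 3.38 and 3.22 RPKM in WT for LCE1B. A single scaled read made up each value above 0 of these genes in KO313, so no ratio is given, and the LCE1 genes are close copies whose reads may be shared. SULF2, an extracellular heparan sulfate sulfatase, had 0.423, 0.586, 0.560 and 0.627 RPKM in KO313, against 7.87, 7.92, 8.90 and 7.11 RPKM in WT, and it was lower in KO313 than in KO414 as well (log2 difference -0.47 ± 0.09, adjusted p = 0.0116).

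Gains were fewer and smaller, and were led by a matrix protein, cytokines and antimicrobial proteins. SPARC, a matricellular glycoprotein, had 13.8, 14.3, 15.4 and 14.5 RPKM in KO313, against 1.52, 1.62, 1.81 and 1.42 RPKM in WT, 9.10-fold higher by the means (log2 change 2.84 ± 0.06, adjusted p = 6.1e-12). IL6, an inflammatory cytokine, had 1.20, 2.31, 2.65 and 2.95 RPKM in KO313, against 0.207, 0.142, 0.131 and 0.185 RPKM in WT, 13.7-fold higher (log2 change 2.01 ± 0.17). The first KO313 library was the lowest for IL6, yet well above WT. PTX3, a soluble pattern recognition protein, had 2.06, 2.64, 3.87 and 3.05 RPKM in KO313, against 0.396, 0.280, 0.429 and 0.330 RPKM in WT. CXCL1, a neutrophil chemokine, had 8.96, 8.89, 11.4 and 10.5 RPKM in KO313, against 2.48, 2.77, 2.23 and 2.69 RPKM in WT. IL32, a proinflammatory cytokine, had 5.29, 6.36, 8.96 and 8.28 RPKM in KO313, against 2.17, 2.39, 2.34 and 2.55 RPKM in WT. Their log2 changes were 1.96, 1.78 and 1.41, with no KO313 library in the WT range. CXCL1 was still lower in KO313 than in KO414 (log2 difference -0.52 ± 0.09, adjusted p = 0.00667). PI3, the elastase inhibitor elafin, had 3.66, 3.96, 4.69 and 4.74 RPKM in KO313, against 0.642, 0.810, 1.20 and 1.23 RPKM in WT. S100A7, the epidermal antimicrobial protein psoriasin, had 3.23, 3.98, 5.10 and 5.40 RPKM in KO313, against 0.646, 0.748, 1.22 and 1.73 RPKM in WT. INHBA, which encodes the subunit of activin A, had 4.09, 5.84, 6.01 and 5.61 RPKM in KO313, against 2.00, 1.93, 1.74 and 1.63 RPKM in WT. The log2 changes of these were 1.71, 1.66 and 1.33, and S100A7 had the widest spread among WT libraries of the 3.

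Another 4 genes completed the 12 highest. EDARADD, the adaptor of the ectodysplasin receptor, had 2.91, 3.25, 3.45 and 3.55 RPKM in KO313, against 0.956, 0.913, 1.14 and 0.956 RPKM in WT (log2 change 1.35). CNTNAP1, a contactin-associated membrane protein, had 1.73, 2.36, 2.08 and 2.55 RPKM in KO313, against 0.598, 0.588, 0.606 and 0.542 RPKM in WT (log2 change 1.30). CYP1B1, a cytochrome P450 of estrogen and xenobiotic metabolism, had 1.72, 2.23, 2.43 and 2.66 RPKM in KO313, 0.880, 1.06, 1.18 and 1.12 RPKM in KO414, and 0.5996, 0.746, 0.431 and 0.678 RPKM in WT. KRTDAP, a keratinocyte differentiation protein, had 1.18, 1.09, 2.20 and 1.18 RPKM in KO313, 0.415, 0.607, 0.639 and 0.895 RPKM in KO414, and 0.192, 0.256, 0.352 and 0.288 RPKM in WT. CYP1B1 and KRTDAP were each higher in KO313 than in both other groups, with log2 differences from KO414 of 0.82 ± 0.12 (adjusted p = 0.00109) and 0.73 ± 0.17 (adjusted p = 0.0291), and the log2 changes of KO414 against WT were smaller (0.49 and 0.55). The third KO313 library gave the highest KRTDAP value.

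**Figure D3:**
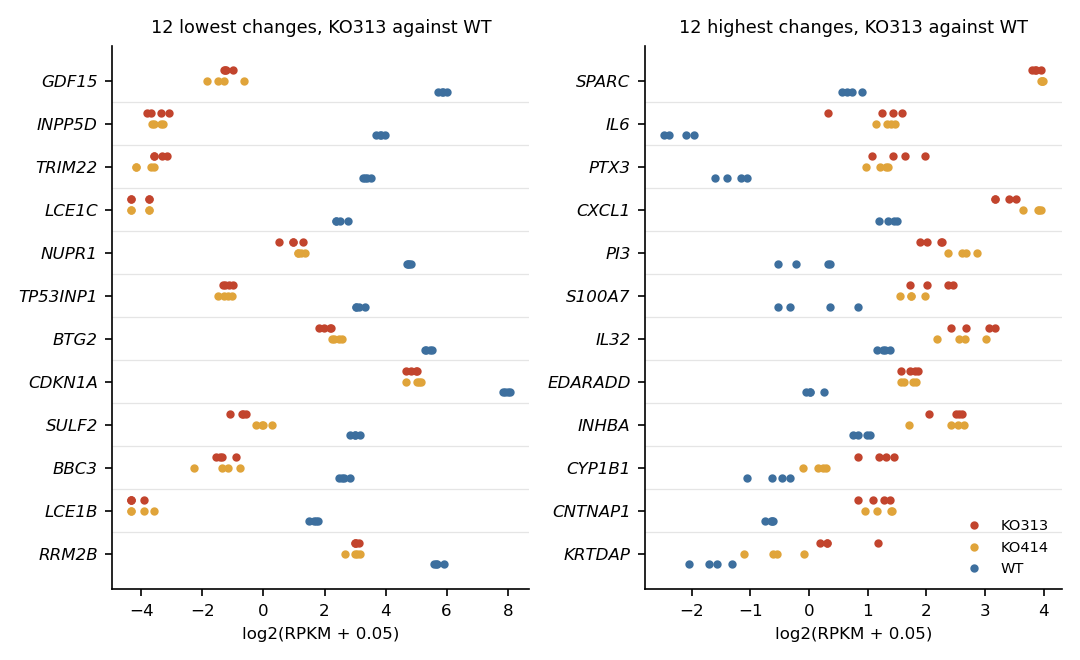
Log2(RPKM + 0.05) in each library (points) for the 12 lowest (left) and the 12 highest (right) changes of KO313 against WT, with KO313 in red, KO414 in ochre and WT in blue. The KO313 and WT points of each gene do not overlap, as the choice of these genes required. The KO313 values of CYP1B1 and KRTDAP also lie above those of KO414.

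Among the lists of genes by function, the change of p53-activated targets stood out by its count. Of 53 members tested, 48 were lower and 0 higher in KO313 at an adjusted p under 0.05 by limma, against 10.7% lower and 10.8% higher over all genes tested, and 29 were lower by at least 2-fold. The median log2 change was -1.07, against 0.02 over all genes. At an unadjusted p under 0.05 none was higher either, and limma-voom gave 49 lower and 0 higher. Feedback regulators fell, with 11.5, 11.4, 8.59 and 9.62 RPKM in KO313, against 46.3, 36.3, 31.5 and 37.3 RPKM in WT for MDM2 (log2 change -1.82) and a log2 change of -1.27 for PPM1D, the WIP1 phosphatase. Of the apoptosis genes, BAX had 20.6, 20.5, 22.7 and 23.7 RPKM in KO313, against 39.4, 39.9, 46.9 and 44.1 RPKM in WT (log2 change -0.94), and FAS, the death receptor, had 8.91, 8.91, 9.37 and 9.01 RPKM in KO313, against 18.8, 15.8, 17.8 and 17.9 RPKM in WT (-0.92). Metabolic and redox members fell as well, with log2 changes of -2.39 for SESN1 and -1.68 for SESN2, the sestrins, and -1.07 for TP53I3, a quinone oxidoreductase. DNA repair members fell by 1.26 (XPC), 1.20 (DDB2) and 1.31 (POLH) on the log2 scale. The list was written from textbook knowledge of p53 but with earlier results of these data known, so the count is a description. TNFRSF10C, a decoy receptor on the list with low values, had 0.0112, 0.0223, 0.0447 and 0.0223 RPKM in KO313, against 0.145, 0.212, 0.279 and 0.190 RPKM in WT and was called lower in the test of low genes.

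The promoters of 3 genes are printed because their genes were called lower and the window holds the consensus half-site of p53 in full. The windows are RefSeq's, 250 bases before to 50 bases after a gene's start in GRCh38.p14, read 5′ to 3′ on the strand of the gene, with each match to the half-site in capitals. The half-site is a decamer that reads the same on both strands, so 1 search covers both.
DDB2, chr11:47214724-47215023, plus strand: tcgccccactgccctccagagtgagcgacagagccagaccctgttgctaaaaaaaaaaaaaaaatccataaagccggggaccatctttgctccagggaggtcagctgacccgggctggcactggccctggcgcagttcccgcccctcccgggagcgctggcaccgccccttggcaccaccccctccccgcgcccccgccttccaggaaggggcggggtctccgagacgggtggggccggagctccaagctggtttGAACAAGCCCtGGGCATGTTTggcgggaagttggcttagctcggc
PLK2, chr5:58460037-58460336, minus strand: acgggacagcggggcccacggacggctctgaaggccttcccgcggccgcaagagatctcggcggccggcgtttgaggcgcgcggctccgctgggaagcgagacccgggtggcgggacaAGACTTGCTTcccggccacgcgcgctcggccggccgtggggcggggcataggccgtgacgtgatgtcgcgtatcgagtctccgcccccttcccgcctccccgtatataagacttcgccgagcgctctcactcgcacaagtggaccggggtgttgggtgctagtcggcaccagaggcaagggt
FDXR, chr17:74872945-74873244, minus strand: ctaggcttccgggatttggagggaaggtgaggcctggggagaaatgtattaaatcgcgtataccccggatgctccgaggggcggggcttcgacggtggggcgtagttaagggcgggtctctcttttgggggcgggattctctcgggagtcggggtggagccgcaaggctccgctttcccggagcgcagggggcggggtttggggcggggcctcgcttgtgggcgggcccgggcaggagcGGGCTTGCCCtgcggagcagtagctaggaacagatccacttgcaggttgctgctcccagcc
DDB2, a subunit of the UV damage sensor, had 6.74, 7.60, 6.92 and 7.37 RPKM in KO313, against 16.2, 17.2, 18.5 and 16.3 RPKM in WT, and its window holds 2 half-sites with 1 base between them. PLK2, a polo-like kinase, had 10.0, 9.87, 10.98 and 11.3 RPKM in KO313, against 29.3, 27.5, 26.9 and 28.5 RPKM in WT. FDXR, the mitochondrial ferredoxin reductase, had 5.04, 3.46, 4.13 and 4.11 RPKM in KO313, against 16.3, 13.1, 13.3 and 14.4 RPKM in WT. The log2 changes were -1.20 ± 0.06, -1.37 ± 0.06 and -1.66 ± 0.15. Of the 149 genes called lower, 93 had a window, and 19 of their 139 windows (13.7%) hold a half-site, as do 3 of the 28 windows (10.7%) of genes called higher, 5.82% of the windows of genes tested and 6.63% of all 35116 windows. A pair of half-sites at most 13 bases apart was in 1 of the 139 windows, that of DDB2, and in 0.0285% of all windows. These 3 genes were chosen after their values and matches were seen, and a match is a description, not a bound site.

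Genes of the cell cycle that changed were mostly higher, by small amounts. Over all genes tested, 10.8% were higher and 10.7% lower in KO313 without a fold threshold. Of 43 G1/S and DNA replication genes, 22 rose and 2 fell in KO313, with a median log2 change of 0.24. CDC25A, the phosphatase that activates CDK2, had 22.5, 25.4, 25.9 and 25.1 RPKM in KO313, against 17.7, 17.5, 18.2 and 17.2 RPKM in WT. E2F1, the transcription factor of S phase entry, rose by a log2 change of 0.59, and the helicase subunit MCM3 by 0.39. The members that fell were PCNA, the sliding clamp of DNA polymerase and a p53 target, with 169, 185, 188 and 193 RPKM in KO313, against 278, 267, 273 and 283 RPKM in WT, and TYMS, thymidylate synthase (-0.30). Of 41 G2/M and mitosis genes, 14 rose and 0 fell (median 0.16), among them FOXM1, a mitotic transcription factor (32.9, 37.3, 33.4 and 35.2 RPKM in KO313, against 24.1, 26.8, 25.7 and 23.4 RPKM in WT), CDC25B (0.33) and the kinesin KIF2C (0.28). Of 28 homologous recombination and Fanconi anaemia genes, 8 rose and 1 fell (median 0.17). RAD54L, a DNA translocase of recombination, rose by 0.37, whereas RAD51C fell, with 18.5, 20.3, 22.2 and 21.1 RPKM in KO313, against 31.3, 30.4, 30.3 and 30.7 RPKM in WT.

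Inflammatory genes that changed were mostly higher, and their counts stand beside 10.8% higher and 10.7% lower over all genes tested. Of 21 NF-kB cytokines and chemokines above the filter, 12 rose and 1 fell, and IL6, CXCL1, IL32 and CXCL2 rose by at least 2-fold, with a median log2 change of 0.43. CXCL2, a neutrophil chemokine, had 4.29, 4.29, 4.90 and 4.78 RPKM in KO313, against 1.83, 1.41, 1.43 and 1.76 RPKM in WT. The member of the 21 that fell was LIF (-0.63), which is also on the list of p53 targets, and in the test of low genes IL33, a cytokine of the interleukin-1 family, was called lower (-1.28, with a mean of 0.00902 RPKM in KO313, against 0.0993 in WT). Between the clones, 4 of these members were lower in KO313 than in KO414, against 1.15% of all genes tested. Of 19 interferon-stimulated genes, 4 rose and 1 fell (21.1% and 5.26%). IFIT3 (0.55) and IFI35 (0.62) rose, whereas EPSTI1 fell (-0.70). Of 13 antigen presentation genes, 5 rose and 1 fell, led by PSMB9, a subunit of the immunoproteasome, with 1.56, 2.09, 2.66 and 2.54 RPKM in KO313, against 0.653, 0.490, 0.995 and 0.698 RPKM in WT. TAP2, a peptide transporter, rose by 0.34, and TAPBP, the chaperone tapasin, by 0.58.

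Markers of the epithelial state went up and down, where 10.8% of all genes tested were higher and 10.7% lower. Among 19 markers of basal and myoepithelial cells, 8 fell and 4 rose. KRT17, a basal keratin, had 77.9, 77.8, 86.3 and 79.2 RPKM in KO313, against 261, 272, 299 and 265 RPKM in WT, 3.42-fold lower, and KRT15, another, had 0.784, 0.859, 1.31 and 0.610 RPKM in KO313, against 7.38, 6.21, 7.66 and 6.94 RPKM in WT. ACTA2, smooth muscle actin of myoepithelial cells, fell as well (-1.20), while LAMB3, a chain of laminin-332, rose, with 158, 159, 176 and 179 RPKM in KO313, against 106, 96.5, 98.3 and 98.6 RPKM in WT. Of 13 luminal markers, 0 rose and 4 fell, which were CLDN7 (-0.84), CLDN4 (-0.74), EHF (-0.64) and CD24 (-0.61). Of 16 mesenchymal and fibroblast markers above the filter, 6 rose and 0 fell (1 after quantile normalization), and in the test of low genes DCN, the fibroblast proteoglycan decorin, was called lower (-1.15, with a mean of 0.0547 RPKM in KO313, against 0.187 in WT). Those that rose included SPARC, the transcription factor SNAI2 (0.49) and VIM, the intermediate filament vimentin, with 30.1, 25.4, 28.9 and 27.8 RPKM in KO313, against 13.7, 12.7, 14.5 and 13.9 RPKM in WT. Of 23 cornified envelope and keratinization genes, 9 fell and 8 rose, with LCE1C, LCE1B and LCE1E (-2.48) among those lower and PI3 and S100A7 among those higher. IVL, which encodes the envelope precursor involucrin, fell as well (-1.66), and the calcium-binding protein gene S100A8 rose (1.06). Of 39 cadherins, claudins and junction genes, 11 fell and 6 rose. CLDN1, a tight junction claudin, had 2.51, 3.01, 3.18 and 4.49 RPKM in KO313, 1.67, 1.57, 2.15 and 1.62 RPKM in KO414, and 9.78, 9.36, 9.04 and 9.79 RPKM in WT, and DSG3, the desmosomal cadherin of basal cells, had 10.7, 11.3, 10.0 and 8.66 RPKM in KO313, against 22.9, 22.4, 21.7 and 21.5 RPKM in WT.

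Signalling and matrix genes gave shorter lists of changes, to be read beside the 10.8% higher and 10.7% lower over all genes tested. Of 14 NOTCH pathway genes, 4 fell and 1 rose (28.6% and 7.14%). The receptor NOTCH1 had 3.62, 2.11, 1.86 and 2.05 RPKM in KO313, against 8.23, 6.45, 5.69 and 6.49 RPKM in WT, with the first KO313 library highest, and HES2, a repressor of the HES family, had 1.29, 1.37, 1.36 and 1.28 RPKM in KO313, against 10.95, 9.46, 10.1 and 9.71 RPKM in WT. The ligand DLL1 rose (0.58). In the test of low genes HEY1 and HEY2, repressors that NOTCH is known to induce, were called higher, HEY1 with 0.362, 0.377, 0.338 and 0.306 RPKM in KO313, against 0.157, 0.134, 0.173 and 0.110 RPKM in WT. Of 26 WNT pathway genes, 7 rose and 2 fell (26.9% and 7.69%). WNT5B (0.43) and LEF1 (0.39) rose and the receptor LGR4 (-0.38) fell. Of 36 genes of TGF-beta, activin and BMP signalling, 8 rose and 3 fell (22.2% and 8.33%), with INHBA, LTBP1 (0.49) and TGFBI (0.44) higher. Of 14 EGF receptor family genes and ligands, 3 fell and 2 rose (21.4% and 14.3%). AREG, the ligand amphiregulin, had 139, 115, 100.5 and 96.0 RPKM in KO313, against 255, 253, 234 and 242 RPKM in WT, NRG4 fell (-0.77) and LRIG1, a receptor inhibitor, rose (0.35). Of 26 AP-1 and immediate early genes, 6 rose and 5 fell (23.1% and 19.2%). ATF3, a stress-induced repressor, was lowest (0.509, 0.591, 0.854 and 0.818 RPKM in KO313, against 5.78, 6.28, 6.55 and 6.27 RPKM in WT). FOSL1 (0.72) and SPRY4 (0.65) were higher.

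Of 25 collagens and basement membrane genes, 7 rose and 4 fell, LAMB3 among those that rose and COL16A1 the lowest. Of 21 matrix proteases and inhibitors, 6 fell and 5 rose, against 6 and 9 by limma-voom. PLAU, urokinase, had 22.8, 26.3, 28.98 and 29.7 RPKM in KO313, against 15.1, 14.6, 15.6 and 14.7 RPKM in WT, while PLAT, tissue plasminogen activator, had 3.17, 2.98, 3.58 and 3.07 RPKM in KO313, against 6.30, 5.83, 6.15 and 5.32 RPKM in WT. Of 14 integrins, ITGA5, the fibronectin receptor subunit, rose (0.67) and ITGA4 fell (-0.41), which is 7.14% each way, under the 10.8% and 10.7% over all genes tested. Of 3 immune and endothelial markers above the filter, 2 rose and 0 fell (CD68 by 0.60 and CD14 by 0.67), and of 3 adipocyte and neural markers 1 rose, TUBB3 (0.39). In the test of low genes, 2 other members of the adipocyte and neural list were called lower, MAP2, a neuronal microtubule-associated protein (-1.17, with a mean of 0.126 RPKM in KO313, against 0.344 in WT), and PLIN4, a lipid droplet perilipin (-1.63, with 0.0494 RPKM in KO313, against 0.254 in WT).

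Metabolic, stress and neural gene lists gave small counts. Of 25 cholesterol biosynthesis genes, 9 fell and 1 rose, with TM7SF2 (-1.04), HSD17B7 (-0.61) and MSMO1 (-0.33) lower. Of 31 NRF2 and glutathione genes, 6 fell and 0 rose. ABCC2, an export pump of conjugated compounds, had 0.422, 0.496, 0.396 and 0.393 RPKM in KO313, against 2.07, 2.21, 2.27 and 2.38 RPKM in WT, and AKR1B10 (-1.17) and HMOX1 (-0.47) fell as well. Of 31 genes for unfolded protein and amino acid stress, 6 fell and 5 rose, and the 3 lowest, NUPR1, ATF3 and SESN2, were lower by at least 2-fold. Of 33 glycolysis and hypoxia genes, 4 rose and 3 fell, with GPI (0.24) and CA12 (0.32) higher and NDRG1 (-0.59) lower, and these shares of 12.1% and 9.09% are near those over all genes tested (10.8% and 10.7%). Of 20 ion channels and neurotransmitter receptors, 9 rose and 5 fell. CHRNA9, a nicotinic receptor subunit, had 3.08, 2.70, 2.86 and 2.97 RPKM in KO313, 10.6, 12.6, 12.1 and 12.02 RPKM in KO414, and 0.903, 0.965, 1.02 and 1.03 RPKM in WT, and so was higher in KO313 than in WT but lower than in KO414. KCNJ15, a potassium channel, had 2.25, 2.24, 2.26 and 2.36 RPKM in KO313, against 0.643, 0.996, 0.807 and 0.843 RPKM in WT, and CLCA2, a p53-inducible channel regulator, fell (-1.41). Of 32 axon guidance genes and ephrins, 10 fell and 6 rose, with SEMA3B (-1.19), UNC5B (-0.80) and EPHB3 (-0.74) lower. Of 19 HOX genes, 4 fell and 0 rose, or 1 after quantile normalization (HOXA5 -0.40, HOXB6 -0.51, HOXB4 -0.37), and of 74 cytosolic ribosomal proteins 10 fell and 0 rose (RPL22 -0.39, RPL9 -0.27, RPS24 -0.34). The 10 are 13.5% of the list, near the 10.7% lower over all genes tested.

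Some of these counts rested on single libraries. Without KO313 replicate 1 or 2 or WT replicate 3 or 4, 1 ribosomal protein gene was lower, and without KO313 replicate 4 the number was 2, without KO414 replicate 3 it was 5. The number of WNT pathway genes that were higher was 3 without KO313 replicate 3 or WT replicate 1, and 4 without KO313 replicate 4, WT replicate 3 or WT replicate 4. For homologous recombination and Fanconi anaemia the higher genes numbered 5 without KO313 replicate 3 or 4 and 15 without KO414 replicate 1, and for TGF-beta, activin and BMP signalling 13 without KO414 replicate 1. Without any 1 WT library, 5 cornified envelope genes were lower, since genes at 0.5 RPKM in the 4 WT libraries alone, such as LCE1B and LCE1C, then missed the filter. With KO313 replicate 2, 3 or 4 left out, 3 matrix protease genes were higher. CA12, HOXB4, ITGA4, RPL9, RPS24 and TUBB3 each lost their call without at least 1 of the libraries. In the other lists, counts of 4 or fewer moved by at most 3 genes when 1 library was left out. For the lists with a count of 0 in limma, the counts at an unadjusted p under 0.05 and by limma-voom were, in that direction, 0 and 0 for G2/M and mitosis, luminal markers, NRF2 and glutathione, and cytosolic ribosomal proteins. They were 2 and 1 for mesenchymal and fibroblast markers, 1 and 2 for immune and endothelial markers, 0 and 2 for adipocyte and neural markers, and 3 and 0 for HOX genes.

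**Figure D4:**
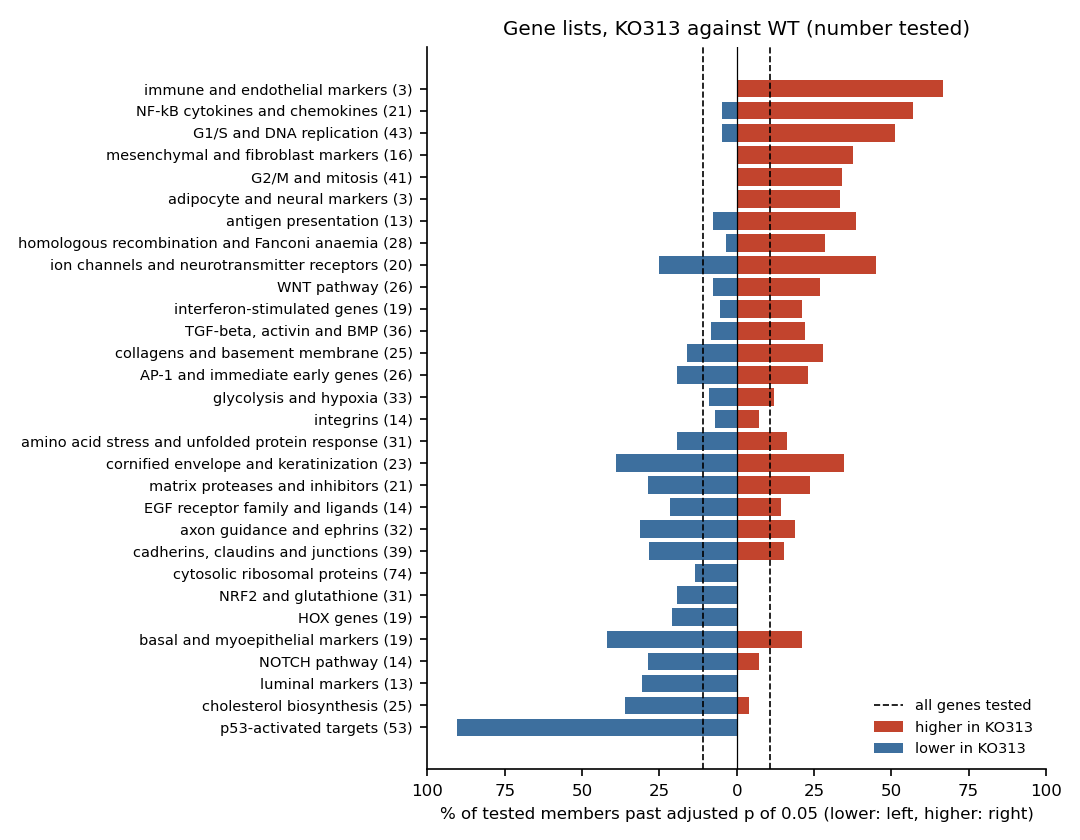
Share of the tested members of each of 30 gene lists that were higher (right, red) or lower (left, blue) in KO313 than in WT at an adjusted p under 0.05, with the shares over all genes tested as dashed lines (10.8% and 10.7%) and the number tested in brackets. The p53-activated targets have the longest bar to the left, with 48 of 53 lower.

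Genes of low RPKM were tested in a second fit on log2(RPKM + 0.05). It held the 2407 genes that the first filter left out and that had at least 0.05 RPKM in 4 libraries. On this scale, 187 were called lower in KO313 (7.77%) and 48 higher (1.99%), and in 223 of these 235 the KO313 libraries lay outside the WT range, as for 24.8% of the 2407. Many were near the floor of detection, where a single scaled read is worth 0.0254 RPKM if the gene spans 1 kb, and 3 scaled reads, the limit that a count of 0 allows, are worth 0.0188 RPKM at the median gene length (4059 bases). In 159 of the 235 the KO313 mean was under 0.1 RPKM, and 20 called lower were listed at 0 in all 4 KO313 libraries. The filter asks for 4 libraries, so genes above it in WT alone drop out when a WT library is left out, and the count of lower genes was then 107, 114, 124 and 109 (without WT replicate 1, 2, 3 and 4).

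The low genes with the lowest log2 changes were nearly silent in KO313. CDH10, a classical cadherin, had 0.00438, 0, 0 and 0 RPKM in KO313, against 0.548, 0.408, 0.526 and 0.368 RPKM in WT. NHLH2, a neuronal helix-loop-helix factor, had 0.0348, 0, 0 and 0 RPKM in KO313, against 0.583, 0.610, 0.523 and 0.348 RPKM in WT. KLHDC7A had 0, 0.00688, 0.00344 and 0.00688 RPKM in KO313, against 0.585, 0.458, 0.602 and 0.416 RPKM in WT. In scaled reads, CDH10 had 1, 0, 0 and 0 in KO313 and 125, 93, 120 and 84 in WT, and KLHDC7A had 0, 2, 1 and 2 in KO313 and 170, 133, 175 and 121 in WT. PXT1, TMEM229B and CYP4F3, a leukotriene hydroxylase, were at 0.00253, 0.0264 and 0.00838 RPKM on average in KO313, against 0.387, 0.549 and 0.313 in WT. CALML3, a calmodulin-like protein of epithelia, had 0.0869, 0.0145, 0.0580 and 0 RPKM in KO313, against 0.768, 0.479, 0.609 and 0.507 RPKM in WT, and EDN2, a vasoconstrictor peptide, had 0.0285, 0.0428, 0.0143 and 0.0143 RPKM in KO313, against 0.599, 0.357, 0.328 and 0.456 RPKM in WT. LCE1F was listed at 0 in KO313 and KO414 throughout, and had 0.159, 0.345, 0.584 and 0.159 RPKM in WT. The log2 changes of these 9 genes were -3.37 (KLHDC7A) to -2.66 (CYP4F3), with adjusted p of at most 4.3e-05. No difference between the clones passed the test for any of them. All 9 had means under 0.05 RPKM in KO313 and in KO414, so near the floor that this test could hardly show a difference. DTX3, described below, was also among the lowest (log2 change -2.67), and it did differ between the clones (log2 difference -3.10). ITGAM, an integrin of myeloid cells on the lists of integrins and immune markers, had 0, 0, 0.00619 and 0.00310 RPKM in KO313, against 0.307, 0.211, 0.208 and 0.214 RPKM in WT, and was called lower. Of the other list members in this test, ELF3 (luminal, -1.87), GJA1 (junctions, -1.59), KLK8 and KLK10 (keratinization, -1.54 and -1.13) and HOXA7 (-1.53) were called lower, and SPRR2E (keratinization, 1.20) and MMP9 (matrix proteases, 1.01) higher.

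The low genes that rose are low by construction, since genes of at least 0.5 RPKM in 4 libraries fall in the first fit. Some, such as RAMP2, passed the filter of 0.05 RPKM in 4 libraries only through KO313, and could enter this test only as gains. ESM1, the proteoglycan endocan, had 0.288, 0.355, 0.365 and 0.326 RPKM in KO313, against 0.0769, 0.0577, 0.0961 and 0.0288 RPKM in WT, 5.14-fold higher by the means. BCHE, butyrylcholinesterase, had 0.113, 0.125, 0.0716 and 0.0955 RPKM in KO313, 0.179, 0.197, 0.215 and 0.179 RPKM in KO414, and 0.00597, 0, 0.00598 and 0 RPKM in WT, so that the clones were both above WT and KO313 was below KO414 (log2 difference -0.69 ± 0.15, adjusted p = 0.0201). GPR143, a pigment cell receptor, had 0.175, 0.236, 0.244 and 0.270 RPKM in KO313, against 0.0175, 0.0524, 0.0873 and 0.0262 RPKM in WT, and RAMP2, a receptor activity-modifying protein, had 0.132, 0.189, 0.189 and 0.0943 RPKM in KO313, against 0, 0, 0.0189 and 0.0378 RPKM in WT. PRDM8, a transcriptional repressor, had 0.515, 0.490, 0.486 and 0.466 RPKM in KO313, 0.268, 0.161, 0.223 and 0.251 RPKM in KO414, and 0.153, 0.157, 0.136 and 0.124 RPKM in WT, and was higher in KO313 than in KO414 (log2 difference 0.98 ± 0.14, adjusted p = 8.1e-04).

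The second comparison asked which changes are KO313's own. A change was counted as not shared if it was called against WT, called in the same direction against KO414, and not called in that direction in KO414 against WT. The comparisons share the KO313 and WT libraries, and the counts are a description of these clones. In the first fit, 29 of the 175 called genes were not called in KO414, 28 of the 29 had the same sign there, and 10 differed between the clones in the direction of their change at an adjusted p under 0.05. A single gene met the rule, COL16A1, which was lower (0.00819%), and 0 were higher by limma. At an unadjusted p under 0.05 the counts were 2 lower and 0 higher, and limma-voom on scaled reads gave 38 lower and 39 higher over 14012 genes. Between the clones themselves, 29 genes were higher (0.237%) and 6 lower (0.0491%) in KO313 than in KO414. Of the 29, 19 were called lower in KO414 against WT and 1 was called in KO313 against WT.

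COL16A1, a fibril-associated collagen, moved in opposite directions in the clones. It had 0.350, 0.266, 0.232 and 0.371 RPKM in KO313, 4.58, 3.28, 3.40 and 3.67 RPKM in KO414, and 1.77, 1.54, 1.40 and 1.54 RPKM in WT, without overlap between groups. Its log2 change against WT was -1.36 ± 0.10 in KO313 (adjusted p = 6.6e-07) and 1.03 ± 0.10 in KO414 (6.5e-06), and the difference between the clones was -2.39 ± 0.10 (1.6e-08). With a pseudocount of 1 the log2 change in KO313 was -0.97, under the 2-fold limit. Without a fold limit, 15 genes were higher in KO313 and lower in KO414 than in WT, and 7 the reverse. ADAMTS1, a secreted metalloprotease, had 0.760, 0.878, 0.754 and 0.891 RPKM in KO313, 0.0437, 0.0437, 0.0471 and 0.0606 RPKM in KO414, and 0.370, 0.350, 0.330 and 0.380 RPKM in WT. SLFN13, a ribonuclease of the schlafen family, had 6.59, 7.23, 7.08 and 7.29 RPKM in KO313, 2.12, 2.72, 2.72 and 2.72 RPKM in KO414, and 3.84, 3.94, 3.74 and 3.67 RPKM in WT, and EMP3, an epithelial membrane protein, had 10.3, 11.3, 12.3 and 13.2 RPKM in KO313, 42.9, 33.6, 33.3 and 33.1 RPKM in KO414, and 18.3, 22.3, 21.4 and 21.7 RPKM in WT. The last 2 were chosen after their values were seen, and for each of the 3 the groups did not overlap (log2 differences between the clones 1.27, 1.30 and -1.56). PAK3, a p21-activated kinase, and ZSCAN12, a zinc finger protein, chosen in the same way, had 0.706, 0.666, 0.643 and 0.602 RPKM in KO313, 0.214, 0.359, 0.209 and 0.394 RPKM in KO414, and 0.0290, 0.0464, 0.0521 and 0.0637 RPKM in WT for PAK3, and 0.607, 0.536, 0.555 and 0.574 RPKM in KO313, 0.830, 1.63, 1.35 and 1.595 RPKM in KO414, and 1.78, 1.63, 1.75 and 1.56 RPKM in WT for ZSCAN12. These 2 did not move in opposite directions. PAK3 was higher than in WT in both clones (log2 changes 1.07 in KO313 and 0.53 in KO414). ZSCAN12 was lower in KO313 (-1.03), and its change in KO414 did not pass (-0.26, adjusted p = 0.137 by limma).

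Among the low genes, 15 higher (0.623%) and 10 lower (0.415%) met the rule. The 25 were called at 2-fold against both other groups, so KO313 libraries outside both ranges are no separate result. Several were nearly silent in KO313 and not in KO414. GBGT1, a gene of a glycosyltransferase family, was listed at 0 in every KO313 library and had 0.288, 0.303, 0.258 and 0.318 RPKM in KO414 and 0.258, 0.265, 0.205 and 0.174 RPKM in WT. DTX3, a ubiquitin ligase of the Deltex family, had 0.00602, 0, 0 and 0 RPKM in KO313, 0.379, 0.367, 0.362 and 0.464 RPKM in KO414, and 0.271, 0.289, 0.301 and 0.247 RPKM in WT, and the KO313 value is 1 scaled read, against 45, 48, 50 and 41 in WT. ACSS1, a mitochondrial acetyl-CoA synthetase, had 0, 0.0227, 0.0303 and 0.0189 RPKM in KO313, 0.368, 0.341, 0.322 and 0.360 RPKM in KO414, and 0.220, 0.239, 0.300 and 0.205 RPKM in WT. The log2 differences from WT and from KO414 were -2.45 and -2.77 for GBGT1, -2.67 and -3.10 for DTX3, and -2.11 and -2.57 for ACSS1. CCDC3, a secreted coiled-coil protein, had 0.00715, 0.0215, 0.0286 and 0.00715 RPKM in KO313, 0.200, 0.200, 0.165 and 0.193 RPKM in KO414, and 0.301, 0.337, 0.337 and 0.415 RPKM in WT. CMPK2, a mitochondrial nucleotide kinase known as an interferon-stimulated gene, had 0.0349, 0.0233, 0.0641 and 0.0233 RPKM in KO313, 0.233, 0.291, 0.332 and 0.262 RPKM in KO414, and 0.181, 0.140, 0.157 and 0.181 RPKM in WT. TP73 met the rule as well. In CCDC3 and TP73 KO414 lay between KO313 and WT, whereas in CMPK2 it lay above WT. ZNF736, a zinc finger protein, was listed at 0 in KO313, with 0.113, 0.248, 0.233 and 0.263 RPKM in KO414 and 0.0526, 0.0977, 0.0376 and 0.105 RPKM in WT, and was called in opposite directions in the clones (log2 changes against WT -1.26 in KO313 and 1.09 in KO414). The other lower genes were RGS11, TMPRSS3 and ZNF880, with KO313 means of 0.0893, 0.0251 and 0.0350 RPKM, against 0.298, 0.106 and 0.275 in WT.

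The genes gained in KO313 and not in KO414 included adhesion, hormone and lipid-binding genes. HSD11B1, which regenerates active cortisol from cortisone, had 0.239, 0.250, 0.358 and 0.293 RPKM in KO313, 0.0651, 0.0325, 0.0651 and 0.0217 RPKM in KO414, and 0.0217, 0.0326, 0.0760 and 0.0651 RPKM in WT. FABP6, a bile acid-binding protein, had 0.219, 0.417, 0.179 and 0.199 RPKM in KO313, 0.0199, 0, 0.0596 and 0 RPKM in KO414, and 0.0199, 0.0596, 0 and 0.0596 RPKM in WT. NCAM1, the neural cell adhesion molecule, had 0.117, 0.143, 0.137 and 0.0788 RPKM in KO313, 0.0117, 0.0292, 0.0263 and 0.00584 RPKM in KO414, and 0.00292, 0.00584, 0.00877 and 0.0175 RPKM in WT. In each of these, KO414 and WT overlapped, and the log2 differences from KO414 were 1.82 ± 0.23, 2.14 ± 0.34 and 1.31 ± 0.19. KO313 stood above both groups, which the choice of the genes named required. FABP6, NCAM1, GRAP and HEY2 passed the filter of 0.05 RPKM in 4 libraries only through KO313, so they could enter this test only as gains. NTNG1, the membrane-anchored netrin-G1, had 0.451, 0.333, 0.430 and 0.386 RPKM in KO313, 0.0613, 0.114, 0.101 and 0.0877 RPKM in KO414, and 0.0877, 0.184, 0.0965 and 0.175 RPKM in WT. GRAP, an adaptor of receptor signalling, had 0.123, 0.199, 0.321 and 0.236 RPKM in KO313, 0.0756, 0.0284, 0.0378 and 0.0473 RPKM in KO414, and 0.0189, 0.0284, 0.0568 and 0.0378 RPKM in WT, and DPY19L2P2, a pseudogene, had 0.526, 0.568, 0.405 and 0.542 RPKM in KO313, 0.116, 0.09997, 0.0948 and 0.0842 RPKM in KO414, and 0.163, 0.0895, 0.132 and 0.142 RPKM in WT. Both belong to families of near-identical copies whose reads may be shared. RBM11, a splicing regulator, had 0.442, 0.542, 0.442 and 0.496 RPKM in KO313, 0.0451, 0.0181, 0.0181 and 0.0181 RPKM in KO414, and 0.199, 0.172, 0.190 and 0.199 RPKM in WT, and was called higher in KO313 and lower in KO414 against WT (log2 changes 1.14 and -1.69). HEY2 had 0.200, 0.145, 0.193 and 0.145 RPKM in KO313, 0.00689, 0.0138, 0.0552 and 0.00690 RPKM in KO414, and 0.0414, 0.0414, 0.0621 and 0.0552 RPKM in WT, and of the NOTCH-inducible pair HEY2 differed between the clones (log2 difference 1.68, adjusted p = 3.0e-04) and for HEY1 the difference did not pass (0.08, adjusted p = 0.958). The other members were SMIM10, NPM2, GPRC5B, CYB5R2, A2ML1, PCDHA9 and PCDHA11.

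The last 2 belong to the protocadherin alpha cluster on chromosome 5, whose genes share their 3′ exons, so that the members are not separate measurements. PCDHA4 had 0.670, 0.791, 0.558 and 0.524 RPKM in KO313, 0.158, 0.192, 0.161 and 0.202 RPKM in KO414, and 0.236, 0.251, 0.183 and 0.254 RPKM in WT, and PCDHA9 had 0.630, 0.730, 0.530 and 0.484 RPKM in KO313, 0.145, 0.177, 0.157 and 0.194 RPKM in KO414, and 0.231, 0.245, 0.171 and 0.237 RPKM in WT, nearly the same values. All 13 PCDHA genes in the first fit were higher in KO313 than in WT and than in KO414 at an adjusted p under 0.05, with median log2 differences of 0.64 and 0.75, where 2.22% of all genes tested were higher in KO313 than in KO414. The median of the 13 in KO414 against WT was -0.11. The first fit's scale understates changes at such low values. PCDHA4 was 2.75-fold higher than in WT by its means but had a log2 change of 0.63 in the first fit. PCDHA9, with nearly the same RPKM, had 1.24 in the second fit, so which members met the rule depended on the filter. The 22 genes of the neighbouring gamma cluster (PCDHG), which share exons in the same way, were higher in KO313 than in WT as well (median 0.35). Their median log2 difference from KO414 was 0.12, and in KO414 20 of them were higher than in WT, as were 15.2% of all genes tested.

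No chromosome stood apart in KO313 as a whole. By the gene order of RefSeq (GRCh38.p14, 12096 of the genes tested placed), the median log2 change of KO313 against WT was -0.01 to 0.06 over the autosomes and X. Over 11199 overlapping runs of 40 neighbouring genes, the highest median was 0.36, at the protocadherin clusters (PCDHA1 to FCHSD1), and the lowest was -0.13 on chromosome 13 (COG6 to RB1), and the 1st and 99th percentiles of the runs were -0.09 and 0.16. The first 40 genes of chromosome 4 (ZNF595 to NOP14) had a median of 0.01 in KO313 against WT. The same genes had a median of 0.89 in KO313 against KO414 and -0.77 in KO414 against WT, and 33 of the 40 were higher in KO313 than in KO414 at an adjusted p under 0.05. They hold 6 of the 29 genes called higher in KO313 than in KO414, and 1 of all 29, SULT1E1, was also called against WT in KO313.

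**Figure D5:**
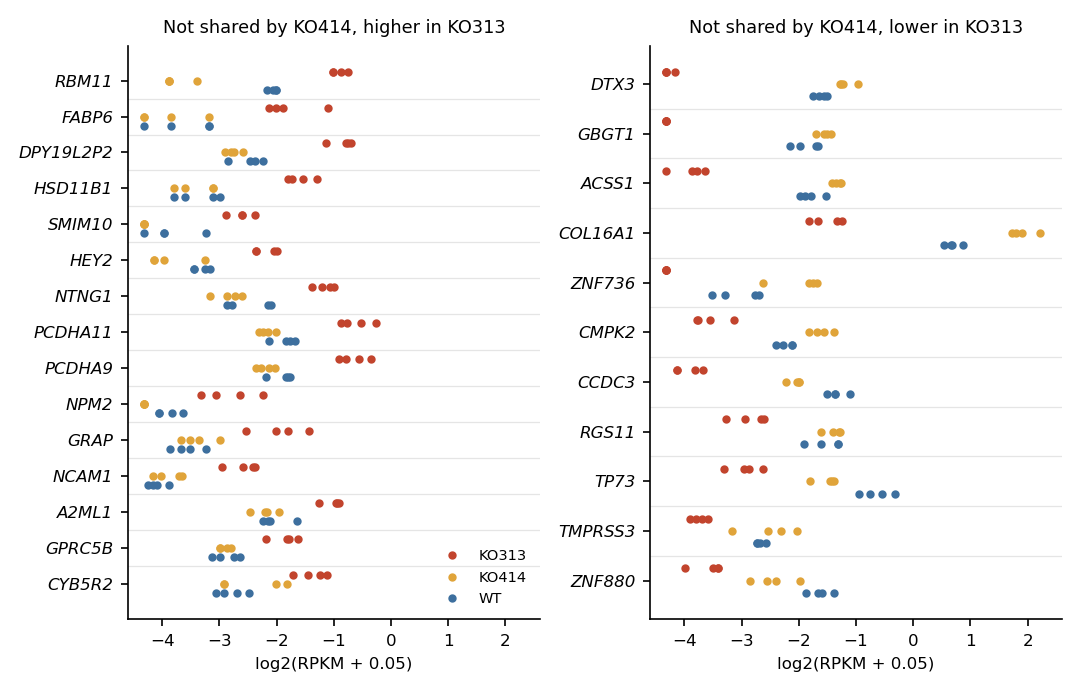
Log2(RPKM + 0.05) in each library (points) of the genes changed in KO313 and not shared by KO414, higher on the left and lower on the right, with KO313 in red, KO414 in ochre and WT in blue. For each gene the 4 KO313 points lie outside the points of both other groups, which is no separate result since each gene was called against both. COL16A1, RBM11 and ZNF736 were called in opposite directions in the clones.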

How the data were processed

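RNA was measured by RNA-seq in 12 libraries of MCF10A cells, 4 each of KO313, KO414 and WT, grouped by the sample labels. The authors deposited 1 table of RPKM values for 22328 gene symbols, of which 26 are dates made of gene names by spreadsheet software and 4 repeats of these were left out. Per the labels the kit was for mRNA, whereas the methods describe removal of ribosomal RNA, and which holds is unknown. Trimming with Trimmomatic and the build hg19 are named in the submitters' processing notes. What aligned and counted the reads, with which annotation and strand setting, is not given in the sources used here, so overlapping genes may share reads. Both clones combined were tested by the authors with DESeq2 (FDR 0.05, fold change 2), which needs read counts.

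For 99.99% of genes above 0 the RPKM values were whole numbers over a gene length and a library total (tolerance 1e-06), with totals of 39294810 to 39343011. Factors per library of 0.7025 to 1.3045 were inferred from gaps among small whole numbers, so these scaled reads were used in an alternative only and intervals from counting were not computed.

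The values were used as deposited. limma 3.58.1 (R 4.3.3) with an intensity trend was fitted to log2(RPKM + 0.5) of all 12 libraries with a term for each group, over genes of at least 0.5 RPKM in 4 libraries, and to log2(RPKM + 0.05) over genes of at least 0.05 RPKM in 4 libraries, of which those outside the first filter were kept. P-values were adjusted by the Benjamini-Hochberg method over all genes tested in a fit, and were two-sided. Fold values beside RPKM are ratios of group means. Both fits were run on simulated data with known changes. These changes were placed only in genes with many scaled reads, so recovery of changes in genes with few reads was not tested. TP63 and TP73 were compared by exact permutation.

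The genes named were those, the 12 highest and 12 lowest log2 changes among called genes outside the WT range with a mean of at least 1 RPKM, the changes not shared by KO414 (up to 12 a direction, or 6 for low genes), the 10 highest and 10 lowest low genes, and up to 3 members of each of 30 gene lists by smallest p, with further genes named as chosen after their values were seen or given as list members. The clone, the gene lists and the rules were chosen with earlier results of these data known. Promoter windows came from RefSeq. Results for the edited gene and a few list members are not reported here. Alternatives were other pseudocounts and filters, quantile normalization, each library left out, a replicate block, KO313 and WT libraries only, and limma-voom on scaled reads. Calls without the fold threshold were added after seeing the data.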

Additional observations from a re-analysis of the deposited data

Results flagged for a closer look

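Within groups of 4 libraries, 8 of 239 groups screened held a library far from the other 3, where chance flags about 1 in 20. In KO313, replicate 3 stood high for KRTDAP (2.20 RPKM, the others 1.09 to 1.18) and for KRT17 (86.3 RPKM, the others 77.8 to 79.2), and replicate 4 for KCNJ15 (2.36 RPKM, the others 2.24 to 2.26). Replicate 2 of KO313 stood high for FABP6 (0.417 RPKM, the others 0.179 to 0.219). KO313 replicate 1 stood high for NOTCH1 (3.62 RPKM, the others 1.86 to 2.11) and low for MCM3 (63.1 RPKM, the others 69.8 to 70.3) and TAP2 (20.9 RPKM, the others 22.7 or more). In WT, replicate 3 stood low for TP63 (5.68 RPKM, the others 6.47 to 6.57).

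Of the 129 genes that the naming rule gave, 17 differed between the clones by limma, at an adjusted p under 0.05 and at least 2-fold. Genes named outside that rule, some of which differed as well, are not counted here. All of these 17 but ADAMTS1 and CHRNA9 met the rule for changes not shared. That rule requires this difference, so for them it is no separate result. The log2 difference was -1.43 for TP73. COL16A1 (-2.39), RBM11 (2.84), ZNF736 (-2.36) and ADAMTS1 (1.27) lay on opposite sides of WT in the clones. DTX3 and CMPK2 did so too, with KO414 above WT by 0.43 and 0.61 in log2 (limma, adjusted p = 0.0219 and 0.0173). CHRNA9 (-1.86) was above WT in both, and less so in KO313. KO313 was the clone with the higher level for FABP6 (2.14), HSD11B1 (1.82), DPY19L2P2 (1.91), GRAP (1.44), NTNG1 (1.68) and NCAM1 (1.31). It was the clone with the lower level for DTX3 (-3.10), GBGT1 (-2.77), ACSS1 (-2.57), CCDC3 (-1.87) and CMPK2 (-1.95).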

How the results depend on the processing

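Counts of calls moved mostly with the pseudocount and with limma-voom. A smaller pseudocount enlarges the log2 change of low genes by construction, and for the other settings the cause was not tested. For KO313 against WT, the numbers higher and lower were 62 at a pseudocount of 0.1 (higher), 11 and 98 at 1, and 148 and 476 by limma-voom, which held 23 of the 26 and 141 of the 149. The share of calls that were higher was 14.9%, against 23.7% by limma-voom. For KO313 against KO414 they were 78 and 22 at 0.1, 10 at 1 (higher), and 238 and 80 by limma-voom. Changes not shared by KO414 numbered 18 and 10 at 0.1, 0 lower at 1, and 39 and 38 by limma-voom. Low genes were 74 higher at 0.02, 19 and 104 at 0.1, 73 higher after quantile normalization and 80 higher by limma-voom, and those not shared were 21 lower at 0.02, 8 and 6 at 0.1, and 27 lower by limma-voom. With no fold threshold, chosen after seeing the data, the counts were 1316 and 1313 against WT, 59 and 36 not shared, and 31 and 27 among low genes not shared.

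Leaving out 1 library gave 20 to 28 higher and 104 to 153 lower against WT, 22 to 34 and 5 to 8 against KO414, 0 and 1 to 3 not shared (3 without KO414 replicate 2, with HIST2H4A and MIR328), 40 to 50 and 107 to 190 low genes, and 10 to 17 and 9 to 12 low genes not shared. TP63 ranged from 0.54 to 0.62 and TP73 from -2.40 to -2.18 in log2.

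The labels do not say what the repeat numbers share. Deviations of same-numbered KO313 and WT libraries correlated at 0.27, 0.19, 0.51 and -0.05, and those of KO313 and KO414 at 0.21, 0.50, 0.03 and -0.09. For numbers 1 to 3 each KO313 library correlated best with the WT library of its own number, and for number 4 it did not. Since not every pair was over 0.1, the numbers were not taken as pairs, and the block is an alternative. With a replicate block there were 27 higher and 151 lower against WT, 31 and 6 against KO414, 0 and 1 not shared, 49 and 190 low genes, and 14 and 11 low genes not shared, and none of these counts moved by over 1.5 times, although the ribosomal protein genes that were lower numbered 5. Of 2445 values for 129 named genes, 35 lost the call and 0 changed sign. Those lost outside leave-one-out were CNTNAP1 (1.00), KRTDAP (0.90) and COL16A1 (-0.97) at a pseudocount of 1 and CMPK2 (-0.96), BCHE (0.96), ZNF736 (-0.77) and HOXB4 (-0.51) at 0.1. RPKM values of under 0.1, a few reads per gene, limit what can be said of low genes.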

Other observations

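Several further genes lay between the calls of the clones, and were chosen after their values were seen. H19, an imprinted long noncoding RNA, had 2.49, 2.38, 1.95 and 2.67 RPKM in KO313, 5.27, 3.59, 3.57 and 3.32 RPKM in KO414, and 9.97, 7.58, 6.08 and 7.94 RPKM in WT. MSX2, a homeobox factor, had 2.37, 2.02, 2.11 and 2.29 RPKM in KO313, 2.71, 2.94, 2.66 and 2.83 RPKM in KO414, and 4.79, 4.63, 5.46 and 4.80 RPKM in WT, and GPRASP2, a sorting protein of G protein-coupled receptors, had 0.378, 0.341, 0.337 and 0.269 RPKM in KO313, 0.575, 0.798, 0.799 and 0.795 RPKM in KO414, and 1.44, 1.53, 1.33 and 1.33 RPKM in WT. All 3 were lowest in KO313 and intermediate in KO414, with log2 differences between the clones of -0.61 ± 0.15, -0.28 ± 0.07 and -0.58 ± 0.08 by limma (SE, adjusted p = 0.0452, 0.0306 and 5.9e-04). IL7R, a cytokine receptor chain, had 2.25, 2.62, 2.65 and 2.46 RPKM in KO313, 1.55, 1.75, 1.97 and 2.08 RPKM in KO414, and 0.965, 1.10, 0.872 and 0.957 RPKM in WT, and so was highest in KO313 (0.36 ± 0.08, adjusted p = 0.0297).

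Genes on opposite sides of WT in the clones without a 2-fold change in KO313 also included transport and signalling genes. SLC16A9, a monocarboxylate transporter family member, had 2.35, 2.67, 2.84 and 2.85 RPKM in KO313, 0.599, 0.935, 0.991 and 0.968 RPKM in KO414, and 1.69, 1.63, 1.56 and 1.47 RPKM in WT. GUCY1B3, a subunit of soluble guanylate cyclase, had 1.77, 1.99, 1.72 and 1.78 RPKM in KO313, 0.238, 0.190, 0.195 and 0.167 RPKM in KO414, and 1.28, 1.23, 1.15 and 1.41 RPKM in WT, and TMEM74, a transmembrane protein linked to autophagy, had 1.21, 1.02, 1.23 and 1.17 RPKM in KO313, 0.177, 0.0930, 0.144 and 0.152 RPKM in KO414, and 0.693, 0.618, 0.736 and 0.710 RPKM in WT. In each the KO313 libraries lay above WT and the KO414 libraries below it, with log2 differences between the clones of 1.22 ± 0.10, 1.73 ± 0.07 and 1.37 ± 0.07. SULT1E1, estrogen sulfotransferase, was lower than in WT in both clones, with 2.44, 2.49, 1.87 and 1.48 RPKM in KO313, 0.715, 0.991, 0.686 and 0.658 RPKM in KO414, and 6.35, 6.37, 6.34 and 5.89 RPKM in WT, and was the gene called both against WT and between the clones among those higher in KO313 than in KO414 (log2 difference 1.01 ± 0.12, adjusted p = 2.9e-04).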
